A study of Mus musculus with 42 samples.

Results

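The messenger RNAs described here are encoded by the mitochondrial genome of mouse cells. Of the 13 protein-coding genes annotated on mitochondrial DNA, 9 were chosen by name: mt-Nd1, mt-Nd2, mt-Nd4 and mt-Nd5 (subunits of complex I), mt-Cytb (complex III), mt-Co1, mt-Co2 and mt-Co3 (complex IV), and mt-Atp6 (ATP synthase). In each 3′READS library, polyadenylation sites (PASs) on the mitochondrial plus strand were given to the nearest mRNA 3′ end within 50 nt. Reads were found at the 3′ ends of 5 of the 9 mRNAs, mt-Nd1, mt-Nd2, mt-Nd4, mt-Nd5 and mt-Cytb, and each of these 5 was listed in all 38 libraries. Beside them stood 14882 nuclear genes with listed PAS reads.

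Mitochondrial DNA is transcribed inside the organelle by its own RNA polymerase into long precursors of both strands. The precursors are cut mainly at the transfer RNAs that lie between the coding genes, and the released mRNAs receive short poly(A) tails, which complete the stop codon of some of them. Mitochondrial mRNAs are translated on mitochondrial ribosomes and are separated from the cytoplasmic machinery of mRNA decay and from stress granules by the mitochondrial membranes. Their products work in the respiratory chain together with many subunits that are encoded in the nucleus.

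3′READS sequences the 3′ ends of polyadenylated RNA, so each transcript gives reads at its end, and levels were taken as reads per 1000000 PAS reads (RPM) without division by length. NIH3T3 is a mouse embryonic fibroblast line and C2C12 a mouse myoblast line that fuses into myotubes in low serum. Both lines are labelled strain C57BL/6. Stress was 250 µM sodium arsenite for 1 h.

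Total RNA (T) of NIH3T3 cells came from non-treated cells (NT) and cells harvested right after arsenite (AS), with 3 libraries each, numbered 1, 2 and 4. Replicate 4 also had 1 library each after 4, 8, 12 and 24 h of recovery in fresh medium (RC4, RC8, RC12 and RC24). NIH3T3 cells labelled with 50 µM 4-thiouridine (4sU) for 1 h before harvest gave newly made RNA (4sU) and unbound, pre-existing RNA (flow-through, Ft), each from NT cultures at 0 h and 4 h, AS and RC4. Antibody against TIA1, an RNA-binding protein of stress granules, gave 2 TIA1 libraries and 2 libraries of the cytoplasmic input for NT and for AS. Cytoplasmic RNA of proliferating (MB) and differentiated (MT) C2C12 cells came from NT cultures at 0 h and 4 h, AS and RC4, and total RNA of untreated MB and MT cells had 2 libraries each. The study's text describes the replicates of RIP and of C2C12 total RNA as biological. For the T comparison it names 2 biological replicates, while 3 pairs were tested here. For the remaining T pair and for the other sets nothing says that the libraries were independent repeats. The p-values there measure only the spread between these libraries. In 4sU, Ft and C2C12 cytoplasm this is the spread between NT cultures at 0 h and 4 h. It can hold a difference of culture time and may otherwise be technical. Groups with 1 library were assumed to vary like the groups with replicates.

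Libraries held 1048335 to 6974664 PAS reads (median 2874186), and a count of 3 reads was worth 0.43 to 2.86 RPM, well under every value of the 5 mRNAs. The 5 stress-response genes checked (Hmox1, Hspa1a, Hspa1b, Fos and Dnajb1) summed to 91.3 to 414.5 RPM in T NT, 1207 to 1840 in T AS and 11733 in T RC4. All 4 myoblast markers were at 0 in NIH3T3 cells. In C2C12 cells their sum did not mark the proliferating state. They summed to 138.5 to 171.5 RPM in MB and to 541.5 to 595.2 RPM in MT, both NT cytoplasm. Of the 4, only Myf5 went the other way there, at 28.49 and 25.49 RPM in MB and 12.86 and 8.53 RPM in MT. The 8 myotube markers summed to 20060 to 20730 RPM in MT cytoplasm and to 152.7 to 212.1 RPM in MB cytoplasm, both NT. Of the 7 fibroblast markers, 1 was at 0 in C2C12 cells and the other 6 were over 5 RPM, so the list as a whole did not separate the lines. It summed to 16410 to 16505 RPM in NT cytoplasm of MB and to 6631 to 18317 RPM in T NT. The 2 nuclear RNAs Malat1 and Neat1 summed to 4.3 to 50.1 RPM in NT cytoplasm of C2C12 cells, against 199.7 to 733.3 RPM in their total RNA.

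The 3′ ends fell on nearly single positions. The sequences around them are shown because they show where each end lies relative to the gene that follows. Each window is 30 nt of mm9 on the plus strand, 5′ to 3′, in lower case with the bases of the gene that follows in capitals. For mt-Cytb, capitals are the bases after its annotated end. The PAS position is base 20 of each window.
mt-Nd1, chrM:3691-3720: taccaccatacatatAGAAATATGTCTGAT
mt-Nd2, chrM:4931-4960: gccccccaactaattacctAGAAGTTTAGG
mt-Nd4, chrM:11525-11554: aattacaggcctgacaatatgTGAATATAG
mt-Nd5, chrM:14126-14155: tcaactacagaaacacctaATGACAAACAT
mt-Cytb, chrM:15269-15298: aatactaaaattatatccatGTCTTGATAG

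For mt-Nd4, the most abundant of the 5 in all, 99.92% of its 1348192 reads lay at position 11544, the last base of the gene, next to the histidine tRNA gene mt-Th. The mt-Cytb site, position 15288, was also the last annotated base and held 96.14% of 161977 reads. In the annotation the last codon of both genes has 1 base, so their stop codons are completed by the poly(A) tail. The mt-Nd2 site, 4950, was 1 base before the annotated end at the border with mt-Tw, and 99.35% of its 345293 reads lay there. For mt-Nd1, 99.45% of 916267 reads lay at 3710, 3 nt past the annotated end, and the last 3 bases up to that position are As in the genome, which cannot be told apart from tail bases. The mt-Nd5 site, 14145, was 580 nt past the annotated end of the coding gene and at the border with mt-Cytb, with 99.63% of 160102 reads. The mRNA 3′ end was taken as the base before the next gene of the strand. This definition was chosen after the positions had been seen. Neither AATAAA nor ATTAAA, the hexamers of nuclear polyadenylation signals, occurred on the transcribed strand within 45 nt upstream of any of the 5 sites, while 1 or the other occurred upstream of 53.93% of 83590 nuclear clusters.

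No PAS on the mitochondrial plus strand was listed between the listed positions 6446 and 11044. The 4597 nt between them hold the 3′ ends of mt-Co1, mt-Co2, mt-Atp6 and mt-Co3. These 4 mRNAs had 0 listed reads. In mm9, chrM:6390-11042 has a nuclear copy at chr1:24618374-24623027 that is 99.936% identical over 4654 nt, with 2 mismatches and 1 gap. Reads that match both places equally well get a low mapping quality, and reads below 10 on that scale had been removed before deposit. The part of this filter in the empty stretch was not tested. The 4 genes are therefore not measured here, which is not the same as absent.

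A nuclear position with a related sequence was listed in all 38 libraries. A copy of chrM:4441-7699 on the minus strand of chromosome 2, 97.362% identical, ends at the copy of the last base before mt-Tk, the gene that follows mt-Co2. At the next position, chr2:22442807, inside the annotated gene Gm13341, 441239 reads were listed (816 to 22971 per library). The last 75 nt of mt-Co2 differ from this copy by 1 base. The windows below show mt-Co2 and the copy, with the bases after the last shared base in capitals.
mt-Co2, chrM:7680-7709, plus strand: ctgcttcaataatttaatttCACTATGAAG
copy, chr2:22442798-22442827, minus strand: ctgcttcaataatttaatttATTTAATGTT
After the last shared base the genome has A on the copy and C on mitochondrial DNA. Reads of mt-Co2 mRNA and of a transcript of the copy cannot be told apart from the deposited counts. These reads are given separately below as the mt-Co2 copy and are not counted among the 5 mRNAs. Copies of the other ends held few listed reads: 564 at a copy of the end of mt-Nd4, 24 at that of mt-Nd5 and 25 at that of mt-Cytb. A low count at a copy does not show how many reads the mapping filter removed. The mt-Nd4 copy, on chromosome 2, is 100% identical over 129 nt and covers the last 32 nt of the mRNA. Reads of mt-Nd4 that lie within these 32 nt match both places, and their loss was not tested.

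The summed level of the 5 mRNAs spanned 0.359% to 6.65% of the PAS reads of a library, with a median of 2.60%. All mitochondrial reads made up 0.582% to 7.58%. The highest summed shares were in newly made RNA, at 6.65% in 4sU AS and 6.07% and 4.13% in 4sU NT (0 h and 4 h). NT cytoplasm of C2C12 cells lay just under the lower 4sU NT library, at 4.07% and 3.72% in MB and 3.72% and 4.09% in MT, and the values of MB and MT overlapped. Input NT, at 3.32% and 2.33%, spanned the values of MT total RNA, 2.80% and 3.02%. MB total RNA, at 2.20% and 2.31%, was lower than MT, and Ft NT, at 2.40% and 2.42%, lay between them. T NT and TIA1 NT were the most spread, at 1.68%, 0.932% and 2.79% and at 0.995% and 3.18%, and overlapped most other groups. The lowest shares of single libraries were 0.359% in TIA1 AS replicate 1 and 0.715% in T AS replicate 2.

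mt-Nd4 was the leading mRNA in 28 of 38 libraries, with 44.5% to 57.4% of the reads of the 5 in these, and its lowest share in any library was 10.2%, in T AS replicate 4. mt-Nd1 led in 8 libraries, the 6 T libraries of replicate 4 and replicate 2 of both TIA1 groups. mt-Cytb led in the 2 T libraries of replicate 1, where it had 50.2% and 51.2% of the reads of the 5. Outside these 2 libraries its share was at most 12.1%. mt-Nd5 never exceeded 10.6%. Within T, TIA1 and input libraries of 1 number, NT and AS had the same leading mRNA.

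**Figure D1:**
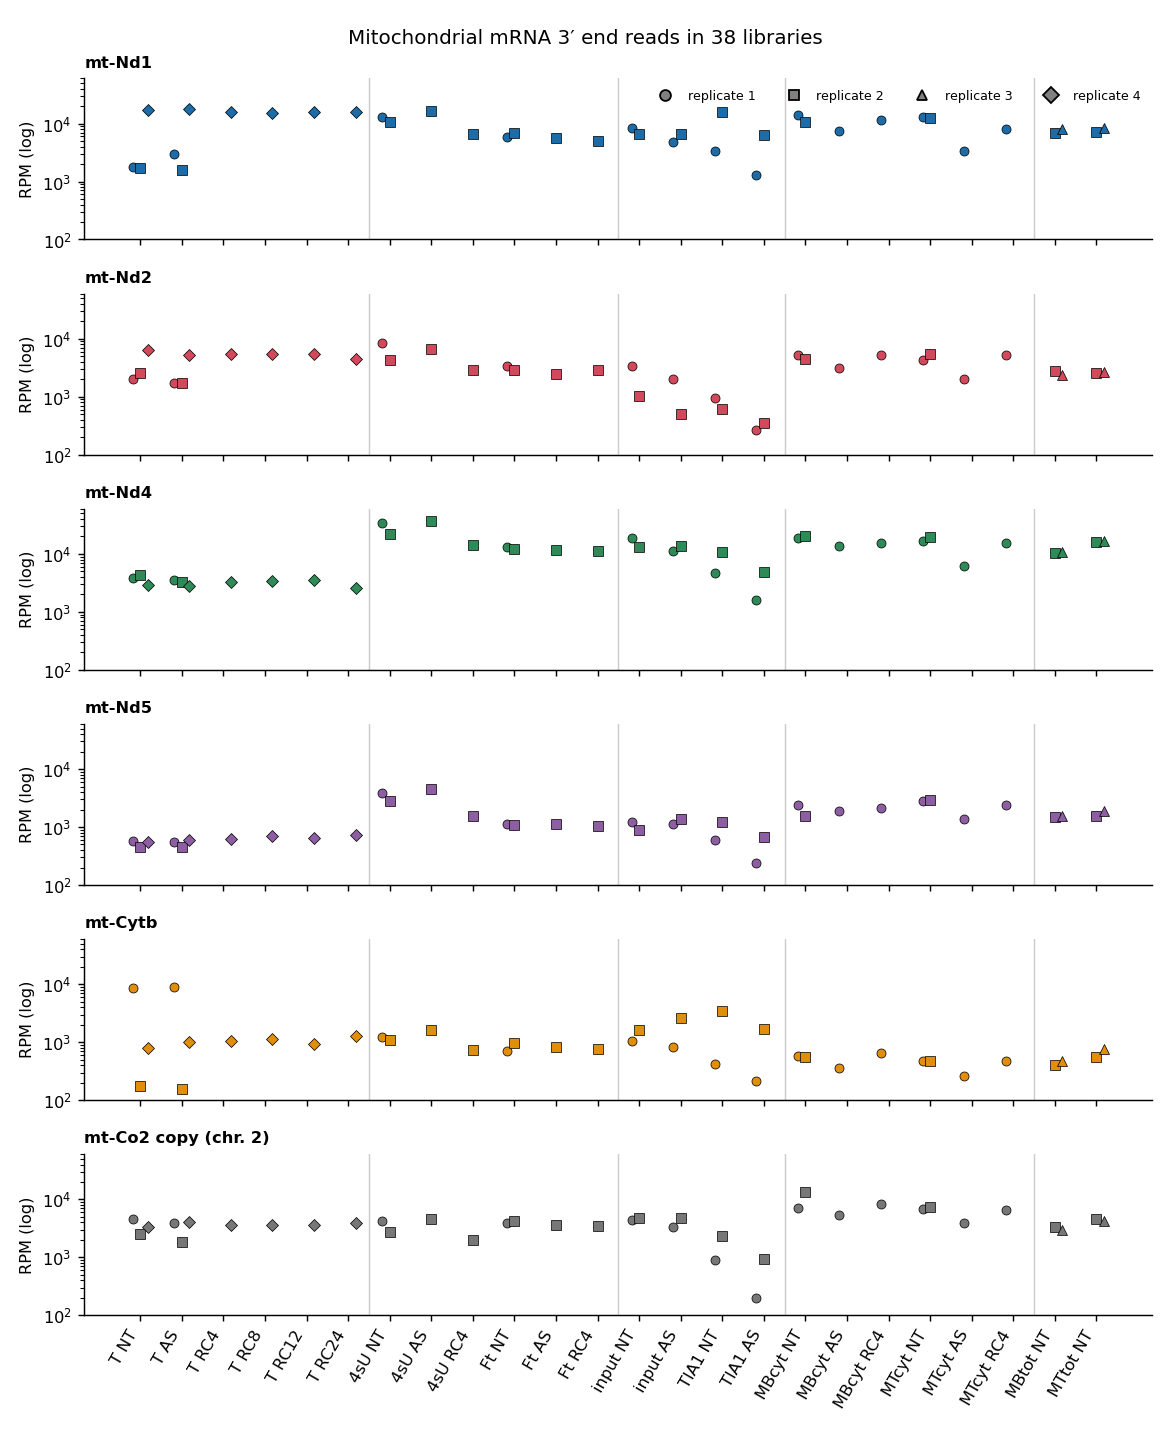
Levels of the 5 mitochondrial mRNAs and of the mt-Co2 copy on chromosome 2, in RPM on log axes, with 1 point per library and 1 column per group. Symbols give the replicate; for 4sU, Ft and C2C12 cytoplasm, NT replicates 1 and 2 are the 0 h and 4 h cultures. Replicate 4 of T lies above replicates 1 and 2 for mt-Nd1 and mt-Nd2, and replicate 1 lies above the others for mt-Cytb. Both 4sU NT libraries and 4sU AS lie highest for mt-Nd4, and 4sU AS and the 0 h library of 4sU NT for mt-Nd5.

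Newly made and pre-existing RNA were compared to see how the mRNAs differ in their share of recent transcripts. In NT cells, mt-Nd5 stood at 3870 and 2789 RPM in 4sU (0 h and 4 h) and at 1140 and 1104 RPM in Ft. mt-Nd4 stood at 34315 and 22476 RPM in 4sU and at 12941 and 12229 RPM in Ft. Both were higher in 4sU, and so were the other 3 mRNAs. mt-Nd1 stood at 12980 and 10545 RPM against 5764 and 6976 RPM. mt-Nd2 stood at 8360 and 4368 RPM against 3431 and 2875 RPM. For mt-Cytb the gap was small, with 1213 and 1110 RPM against 715.3 and 969.0 RPM.

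In the edgeR fit of this set, 4 of the 5 mRNAs were higher in 4sU than in Ft at a Benjamini-Hochberg adjusted p under 0.05, where 42.4% of all genes were called, 26.3% higher and 16.1% lower. The log2 fold change was 1.57 ± 0.18 (SE, adjusted p = 9.8e-05) for mt-Nd5 and 1.17 ± 0.19 (adjusted p = 0.00068) for mt-Nd4. It was 1.01 ± 0.26 (adjusted p = 0.0090) for mt-Nd2 and 0.88 ± 0.16 (adjusted p = 0.0014) for mt-Nd1. For mt-Cytb it was 0.46 ± 0.18, which did not pass (adjusted p = 0.058). With 0 h and 4 h as a block, all 5 passed (mt-Cytb adjusted p = 0.016), against 48.9% of all genes. DESeq2 called 3 and lost mt-Nd2 (0.91, adjusted p = 0.17), where it called 37.9% of the 9538 genes to which it gave an adjusted p (20.8% higher). The median over the 5 was 1.01 and that of all genes 0.17. The mt-Co2 copy differed from the 5, at 4182 and 2782 RPM in 4sU and 3903 and 4259 RPM in Ft, a log2 fold change of -0.23 ± 0.19 (adjusted p = 0.37).

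The number of uridines can change how much 4sU-labelled RNA is captured. Up to its site the mt-Nd5 mRNA has 650 uridines in 2404 nt, mt-Nd4 407, mt-Cytb 334, mt-Nd1 288 and mt-Nd2 284. Uridines were 27.0% to 30.0% of the bases. The part of uridine number in the differences was not tested, and the values are not adjusted for it. Of the 71 nuclear-encoded subunits of the respiratory chain and ATP synthase listed, 66 were tested here, and 0 were higher in 4sU and 59 lower, with a median log2 fold change of -1.06. The medians of the nuclear and of the mitochondrial subunits thus stood on opposite sides of the median of all genes.

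**Figure D2:**
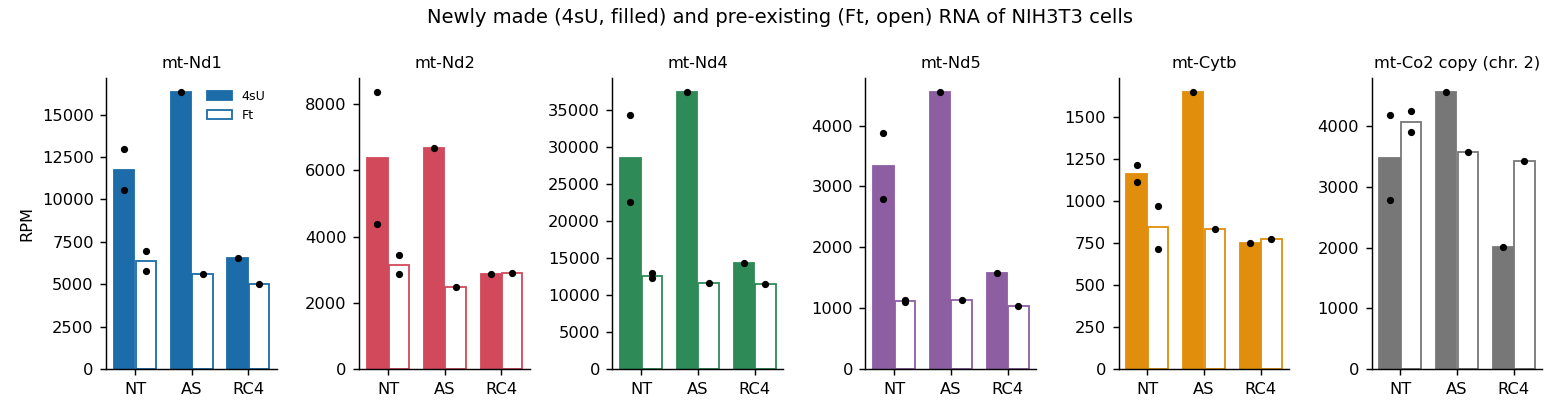
RPM of the 5 mRNAs and of the mt-Co2 copy in newly made (4sU, filled bars) and pre-existing (Ft, open bars) RNA of NIH3T3 cells. Bars are means and points are libraries (2 for NT, 1 each for AS and RC4). In NT and AS the filled bars of the 5 mRNAs exceed the open ones, and at RC4 those of mt-Nd2 and mt-Cytb do not.

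In newly made RNA after arsenite, none of the 5 mRNAs passed the test against NT. mt-Nd4 stood at 37328 RPM in 4sU AS, above both NT libraries, and mt-Cytb at 1647 RPM, also above both. mt-Nd1 (16321 RPM) and mt-Nd5 (4546 RPM) were likewise above both, while mt-Nd2 (6679 RPM) lay between them. The log2 fold changes ran from 0.07 ± 0.31 (mt-Nd2) to 0.50 ± 0.21 (mt-Cytb), and 0 of 5 passed in edgeR (adjusted p 0.20 to 0.95), where 4.43% of all genes did (1.4% higher, 3.03% lower). At an unadjusted p under 0.05 there were 2 of 5 (20.5% of all genes), and DESeq2 called 1, mt-Cytb, where it called 7.51% of 6115 genes with an adjusted p (4.66% higher). Against the 0 h NT culture, the sum of the 5 was 1.095 times as high (6.07% with a Wilson 95% interval of 6.04 to 6.10%, and 6.65%, 6.62 to 6.69%). All genes together had a median of -0.20 in this comparison.

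At 4 h of recovery, 4 of the 5 mRNAs were lower in newly made RNA than in NT. mt-Nd5 stood at 1580 RPM, mt-Nd4 at 14356 RPM, mt-Nd1 at 6525 RPM, mt-Nd2 at 2862 RPM and mt-Cytb at 748.2 RPM, each below both NT libraries. Log2 fold changes were -1.08 ± 0.23 for mt-Nd5 (adjusted p = 0.0070), -1.15 ± 0.33 for mt-Nd2 (adjusted p = 0.026), -0.98 ± 0.24 for mt-Nd4 (adjusted p = 0.013) and -0.85 ± 0.20 for mt-Nd1 (adjusted p = 0.012). For mt-Cytb it was -0.63 ± 0.22 (adjusted p = 0.058). In this comparison edgeR called 26.7% of all genes, 18.8% lower and 7.94% higher, and the median of all genes was -0.31. The median of the 5 mRNAs was -0.98.

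These calls depended on the scale. With TMM, with median-ratio size factors or with DESeq2, which set the median of all genes near 0, only mt-Nd5 passed, and the other 4 values stayed below 0. DESeq2 called 16.8% of 10180 genes with an adjusted p, 7.6% lower. With the annotated end of the coding gene as mRNA end, mt-Nd5 was at -0.67 and did not pass (edgeR, adjusted p = 0.10). Against the 4 h NT culture alone, mt-Nd1 was at -0.69 and mt-Nd4 at -0.65. The sum of the 5 was then 0.631 times as high (2.61%, Wilson 95% interval 2.59 to 2.62%, against 4.13%, 4.11 to 4.15%). The mt-Co2 copy stood at 2014 RPM, a log2 fold change of -0.79 ± 0.24 (adjusted p = 0.035). It did not pass with these other scales (-0.51 to -0.49), and against the 4 h NT culture alone it was at -0.47.

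In pre-existing RNA, none of the 5 passed the test in AS or RC4. In Ft, mt-Nd4 stood at 12941 and 12229 RPM in NT, 11573 in AS and 11390 in RC4. mt-Nd5 stood at 1140 and 1104 RPM, then 1128 and 1027 RPM. mt-Nd1 stood at 5764 and 6976 RPM, then 5609 and 5039 RPM. In AS, 0 of 5 passed in edgeR (log2 fold changes -0.35 to 0.01, 0 at an unadjusted p under 0.05, 0 in DESeq2), where 0.743% of all genes did. In RC4, 0 of 5 passed as well (-0.34 to -0.12, 0 at an unadjusted p under 0.05, 0 in DESeq2), where 29.2% of all genes did, 8.12% higher and 21.1% lower, and their median was -0.42. With TMM, median-ratio factors or DESeq2 the 5 RC4 values turned to 0.07 to 0.31.

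The difference between fractions was also compared between conditions. The ratio of 4sU to Ft of the summed 5 mRNAs was 2.53 in NT at 0 h, 1.71 in NT at 4 h, 3.08 in AS and 1.23 in RC4. In the edgeR test of the change in this difference, 0 of 5 passed for AS (0.42 to 0.66, 1 at an unadjusted p under 0.05, against 9.8% of all genes) and 0 of 5 for RC4 (-0.51 to -1.03, 3 at an unadjusted p under 0.05, against 10.5% of all genes). Of all genes 0% passed in either, and DESeq2 also called 0 of 5. With the block, 0.652% of all genes passed for RC4 and none of the 5 did (lowest adjusted p = 0.088, mt-Nd5). Leaving out 1 NT library, the RC4 values ran from -1.43 to -0.49 for mt-Nd2, -1.11 to -0.5 for mt-Nd4 and -1.17 to -0.69 for mt-Nd5. For mt-Nd1 they ran from -0.66 to -0.35 and for mt-Cytb from -0.75 to -0.31.

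In total RNA, replicate 1 stood apart for mt-Cytb and replicate 4 for mt-Nd1 and mt-Nd2, in NT and in AS alike. mt-Cytb stood at 8616, 178.1 and 786.9 RPM in NT replicates 1, 2 and 4, and at 8917, 153.8 and 1013 RPM in AS. mt-Nd1 stood at 1802, 1732 and 17321 RPM in NT and at 2987, 1589 and 18145 RPM in AS. mt-Nd2 stood at 2026, 2560 and 6339 RPM in NT and at 1720, 1720 and 5225 RPM in AS. The deviations of NT and AS of the same number from their group means correlated at 0.855, 0.862 and 0.778 across 9459 genes (replicates 1, 2 and 4). mt-Nd4 (3818, 4408 and 2917 RPM in NT, 3578, 3236 and 2838 RPM in AS) and mt-Nd5 (567.0, 444.0 and 549.9 RPM in NT, 545.0, 448.2 and 599.9 RPM in AS) varied least. NT and AS overlapped for all 5.

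Paired by replicate number, mt-Nd2 and mt-Nd4 were lower in AS in all 3 pairs. AS was 0.849, 0.672 and 0.824 times NT for mt-Nd2 and 0.937, 0.734 and 0.973 times NT for mt-Nd4. mt-Nd1 was 1.66, 0.918 and 1.05 times NT, mt-Nd5 0.961, 1.01 and 1.09 times, and mt-Cytb 1.035, 0.864 and 1.29 times. The sum of the 5 was 1.05, 0.767 and 0.997 times NT. Without the block edgeR called 0 of 5 and 0% of 10239 genes (23 genes at an unadjusted p under 0.05, 0 of the 5 among them, and 0 genes called by DESeq2). With the block it called 0 of 5 and 0.107% of all genes, and 1 of the 5, mt-Nd2, was under 0.05 unadjusted, against 5.99% of all genes. The blocked log2 fold changes were -0.36 ± 0.12 for mt-Nd2 (adjusted p = 0.60), -0.19 ± 0.12 for mt-Nd4, 0.03 ± 0.13 for mt-Nd5, 0.07 ± 0.14 for mt-Cytb and 0.22 ± 0.15 for mt-Nd1. For mt-Nd2 the 95% interval was -0.59 to -0.14 on the log2 scale before adjustment, and for mt-Nd5 -0.23 to 0.28.

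The time course of replicate 4 had 1 library per time and no test. The summed share of the 5 was 2.79% in NT (Wilson 95% interval 2.77 to 2.82%), 2.78% in AS (2.75 to 2.81%), 2.60% in RC4 (2.57 to 2.62%), 2.60% in RC8 (2.57 to 2.62%), 2.61% in RC12 (2.58 to 2.63%) and 2.52% in RC24 (2.49 to 2.55%). These intervals cover counting error only. The sum at RC24 was 90.1% of NT. The interval of AS overlapped that of NT, and those of the 4 recovery times lay below it. The 3 NT libraries of T, of which this NT library is the highest, spanned 0.932 to 2.79%. mt-Nd2 stood at 6339 RPM in NT and at 5225, 5470, 5552, 5348 and 4483 RPM in AS, RC4, RC8, RC12 and RC24. mt-Cytb stood at 786.9 RPM in NT and then at 1013, 1067, 1153, 943.6 and 1261 RPM, and mt-Nd5 at 549.9 RPM and then at 599.9, 614.2, 690.9, 645.3 and 738.3 RPM. At RC24 mt-Nd2 was thus 0.707 times NT, mt-Cytb 1.60 times and mt-Nd5 1.34 times. mt-Nd4, at 0.884 times, and mt-Nd1, at 0.929 times, were closer to NT.

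**Figure D3:**
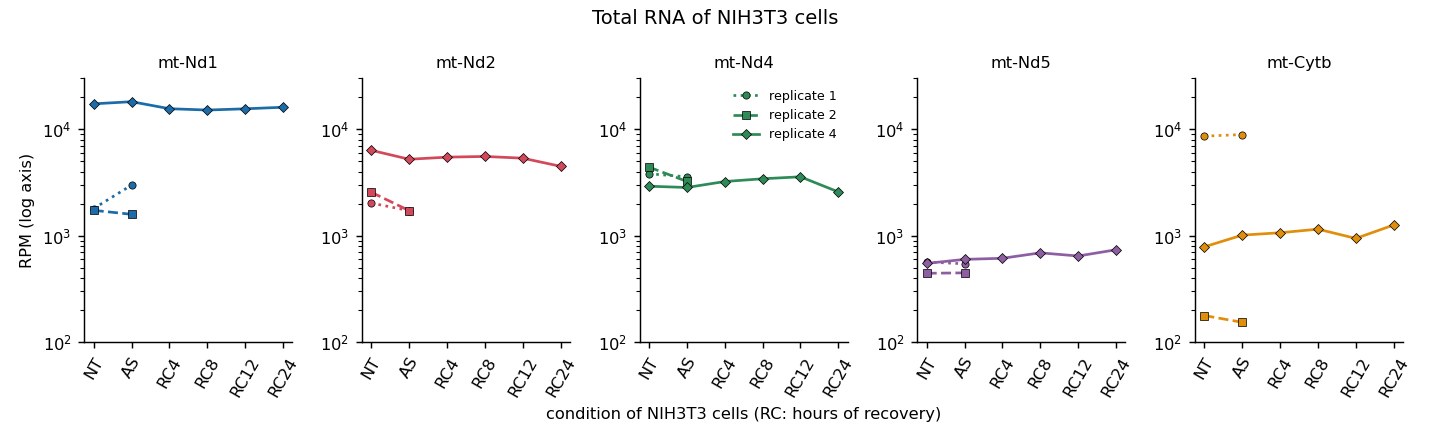
RPM (log axes) of the 5 mRNAs in total RNA of NIH3T3 cells. Lines join libraries of 1 replicate number; replicates 1 and 2 have NT and AS, and replicate 4 also has 4 recovery times. Replicate 4 lies above replicates 1 and 2 for mt-Nd1 and mt-Nd2, and replicate 1 above the others for mt-Cytb. Within a number, AS was 0.672 to 1.66 times NT.

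TIA1 RIP was compared with its input. In NT, mt-Nd4 stood at 4650 and 10954 RPM in TIA1 and at 19014 and 13012 RPM in input (replicates 1 and 2). mt-Nd2 stood at 962.2 and 602.0 RPM in TIA1 and 3436 and 1034 RPM in input. Both were lower in TIA1 in each pair. mt-Nd1 stood at 3315 and 15597 RPM in TIA1 and 8526 and 6718 RPM in input. It was lower in 1 pair and higher in the other, as were mt-Nd5 (606.9 and 1239 RPM against 1202 and 887.4 RPM) and mt-Cytb (416.4 and 3414 RPM against 1041 and 1624 RPM). The TIA1 to input ratio of the sum was 0.300 in replicate 1 and 1.37 in replicate 2.

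After arsenite all 5 mRNAs stood lower in TIA1 than in input in both replicates. mt-Nd4 stood at 1599 and 4926 RPM in TIA1 and 11428 and 13547 RPM in input. mt-Nd5 stood at 240.8 and 669.3 RPM against 1132 and 1383 RPM. mt-Nd2 stood at 262.9 and 351.0 RPM against 2038 and 493.1 RPM. For mt-Nd1, 1276 and 6331 RPM stood against 4884 and 6567 RPM, and for mt-Cytb 212.5 and 1682 RPM against 838.7 and 2658 RPM, so that the groups overlap.

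Without a block, edgeR called 0 of the 5 for TIA1 against input in NT, where 3.03% of all genes were called (1.89% higher, 1.14% lower), and 0 of the 5 in AS, where 1.31% were (0.644% higher, 0.664% lower). At an unadjusted p under 0.05 there were 0 of 5 in NT and 3 of 5 in AS (20.4% of all genes). DESeq2 called 0 in NT and 3 in AS, where it called 11.4% of 9752 genes with an adjusted p (6.2% lower). Input and RIP of a number and condition came from the same lysate. The block joined NT and AS of a number, so it did not pair by lysate. With the replicate number as block, edgeR called 0 of 5 in NT (18.1% of all genes) and 2 of 5 in AS (17.1% of all genes). The 2 were mt-Nd4, -2.08 ± 0.45 (adjusted p = 0.012), and mt-Nd5, -1.58 ± 0.41 (adjusted p = 0.026). mt-Nd2 stood at -1.64 ± 0.51 (adjusted p = 0.052), mt-Cytb at -1.27 ± 0.51 (adjusted p = 0.12) and mt-Nd1 at -0.93 ± 0.56 (adjusted p = 0.31). In NT the blocked values were -1.34 ± 0.49 for mt-Nd2 (adjusted p = 0.088) and -1.23 ± 0.44 for mt-Nd4 (adjusted p = 0.082), with the other 3 between -0.33 and -0.17.

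The mt-Co2 copy stood at 911.5 and 2362 RPM in TIA1 against 4335 and 4694 RPM in input in NT, and at 202.6 and 945.3 RPM against 3346 and 4757 RPM in AS. Without the block it did not pass in edgeR, at -1.46 ± 0.69 in NT (adjusted p = 0.26) and -2.82 ± 0.73 in AS (adjusted p = 0.075). Its blocked log2 fold change was -1.68 ± 0.43 in NT (adjusted p = 0.024) and -3.09 ± 0.46 in AS (adjusted p = 0.0029). For the nuclear respiratory chain list, the median was -1.88 in NT and -2.10 in AS, and 16 and 15 of its 66 tested genes were lower and 0 higher. With the block, 44 and 49 were lower, where 7.84% and 6.6% of all genes were, and 1 was higher in NT (10.2% of all genes). The median of the 5 mRNAs was -0.18 in NT and -1.47 in AS, and that of all genes 0.17 and 0.24.

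The change in TIA1 association from NT to AS did not pass for any of the 5 (-1.41 to -0.53, edgeR, 0 at an unadjusted p under 0.05, and 0% of all genes called; 0 of 5 in DESeq2). With the block, 1 of the 5 was under 0.05 unadjusted (4.39% of all genes) and 0 were called. In the input itself, AS against NT gave 0 of 5, with 0.0101% of all genes called, log2 fold changes of -0.82 ± 0.72 (mt-Nd2) to 0.39 ± 1.06 (mt-Cytb), 0 of 5 at an unadjusted p under 0.05 and 0 of 5 in DESeq2. mt-Nd2 stood at 0.593 and 0.477 times NT in the 2 input pairs, while mt-Nd5 stood at 0.942 and 1.56 times.

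In cytoplasmic RNA of MT cells all 5 mRNAs stood lower in AS than in both NT libraries. mt-Nd1 stood at 12992 and 12547 RPM in NT, 3423 RPM in AS and 8002 RPM in RC4. mt-Nd4 stood at 16559 and 19478 RPM in NT, 6177 RPM in AS and 15116 RPM in RC4. The RC4 values lay between AS and NT for these 2. mt-Nd2 went from 4356 and 5502 RPM to 2033 and then 5224 RPM, and mt-Nd5 from 2867 and 2880 RPM to 1403 and then 2377 RPM. mt-Cytb went from 474.6 and 479.7 RPM to 258.0 and then 479.2 RPM. The sum of the 5 stood at 3.72% and 4.09% in NT, at 1.33% in AS (Wilson 95% interval 1.32 to 1.34%) and at 3.12% in RC4 (3.10 to 3.14%).

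Log2 fold changes of AS against NT in MT were -1.90 ± 0.23 for mt-Nd1 (adjusted p = 0.098), -1.54 ± 0.19 for mt-Nd4 (adjusted p = 0.11), -1.28 ± 0.23 for mt-Nd2 (adjusted p = 0.26), -1.03 ± 0.31 for mt-Nd5 (adjusted p = 0.43) and -0.89 ± 0.20 for mt-Cytb (adjusted p = 0.36). edgeR called 0 of 5 and 0.0677% of all genes (0.058% higher, 0.00967% lower). All 5 were under 0.05 unadjusted, as were 9.75% of all genes. DESeq2 called all 5 (adjusted p 1.6e-16 to 0.015). It gave an adjusted p to 919 of the 10342 genes and called 6.75% of these, 1.85% lower. The calls therefore depend on the tool, and AS has 1 library. The median of the 5 was -1.28 and that of all genes 0.02. The nuclear respiratory chain list had a median of -0.13 with 0 of 65 called.

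In MB cells the sum went from 4.07% and 3.72% in NT to 2.66% in AS (2.64 to 2.68%) and 3.48% in RC4 (3.45 to 3.50%). mt-Nd1 stood at 13800 and 10655 RPM in NT and 7540 RPM in AS, and mt-Nd4 at 18660 and 19966 RPM and 13710 RPM. mt-Nd2 went from 5193 and 4470 RPM to 3140 RPM, and mt-Cytb from 575.8 and 566.1 RPM to 362.5 RPM. These 4 were below both NT libraries in AS, and mt-Nd5, with 1870 RPM, lay between 2427 and 1533 RPM. Log2 fold changes were -0.70 ± 0.21 (mt-Nd1), -0.66 ± 0.20 (mt-Cytb), -0.62 ± 0.23 (mt-Nd2), -0.49 ± 0.18 (mt-Nd4) and -0.08 ± 0.30 (mt-Nd5). In edgeR 0 of 5 passed (adjusted p 0.45 to 1.0, 4 under 0.05 unadjusted against 9.83% of all genes), where 0.116% of all genes did (0.106% higher, 0.00967% lower). DESeq2 called 1, mt-Nd1, where it called 2.42% of 2522 genes with an adjusted p (0.595% lower). Leaving out either NT library, the log2 fold change ran from -0.87 to -0.5 for mt-Nd1, -0.73 to -0.51 for mt-Nd2 and -0.54 to -0.44 for mt-Nd4. For mt-Nd5 it ran from -0.38 to 0.29 and for mt-Cytb from -0.67 to -0.64.

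At RC4, 0 of 5 passed in either cell state in edgeR, where 0.986% of all genes passed in MB and 1.09% in MT (0.803% higher, 0.29% lower), and DESeq2 called 0 in both. At an unadjusted p under 0.05 there were 0 of 5 in MB and 1 in MT (16.3% of all genes), mt-Nd1 (-0.67 ± 0.21, adjusted p = 0.22). The other 4 lay between -0.27 and 0.08 in MT, and in MB the 5 lay between -0.32 (mt-Nd4) and 0.16 (mt-Cytb).

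Whether MT and MB responded differently was tested as an interaction, for AS added after the values had been seen. The log2 fold change in MT minus that in MB was -1.20 ± 0.30 for mt-Nd1, -1.05 ± 0.25 for mt-Nd4, -0.95 ± 0.42 for mt-Nd5, -0.66 ± 0.31 for mt-Nd2 and -0.23 ± 0.27 for mt-Cytb. In edgeR 0 of 5 passed (adjusted p 0.84 to 0.96, 2 under 0.05 unadjusted against 5.56% of all genes) and 0% of all genes. DESeq2 called 2, mt-Nd1 and mt-Nd4, where it called 1.67% of 718 genes with an adjusted p (0.975% lower). Leaving out 1 NT library, the AS interaction ran from -1.4 to -1.03 for mt-Nd1, -1.16 to -0.93 for mt-Nd4 and -1.32 to -0.66 for mt-Nd5. For mt-Nd2 it ran from -0.81 to -0.48 and for mt-Cytb from -0.24 to -0.22. At RC4 the interaction was -0.56 to 0.07, with 0 of 5 called and 0 under 0.05 unadjusted in edgeR, and 0 called in DESeq2.

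**Figure D4:**
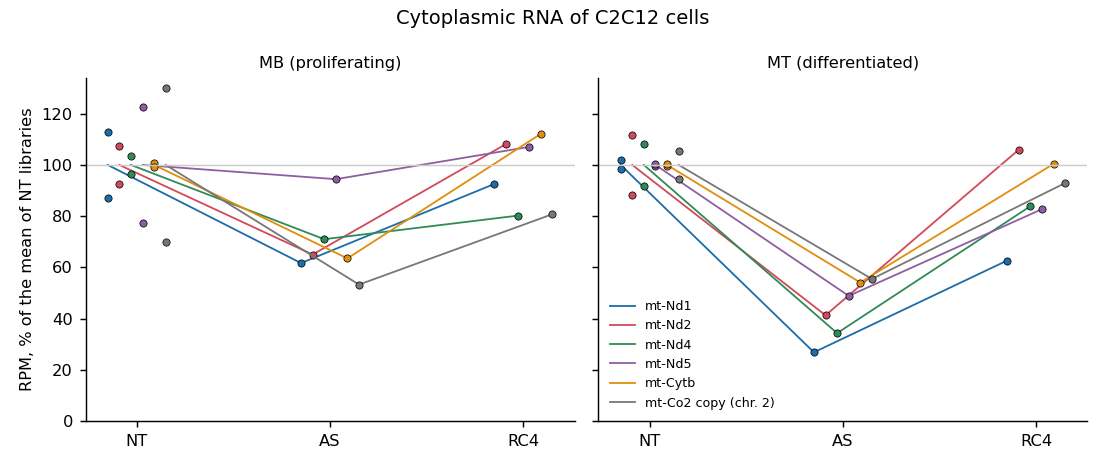
Levels of the 5 mRNAs and of the mt-Co2 copy in cytoplasmic RNA of C2C12 cells, as percent of the mean of the 2 NT libraries (points are libraries, lines join means). In MT cells the AS points of all 5 mRNAs lie below both NT points, and in MB cells those of all but mt-Nd5 do.

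Total RNA of untreated C2C12 cells differed between states for mt-Nd4 and mt-Cytb. mt-Nd4 stood at 16090 and 16581 RPM in MT and 10356 and 10654 RPM in MB. mt-Cytb stood at 557.0 and 769.4 RPM in MT and 408.5 and 470.1 RPM in MB. mt-Nd1 (7288 and 8329 RPM in MT, 6940 and 7981 RPM in MB), mt-Nd2 (2571 and 2614 RPM, 2817 and 2404 RPM) and mt-Nd5 (1523 and 1893 RPM, 1477 and 1542 RPM) overlap. The log2 fold change was 0.64 ± 0.08 for mt-Nd4 (edgeR, adjusted p = 9.0e-06) and 0.59 ± 0.13 for mt-Cytb (adjusted p = 0.0011), so 2 of 5 rose, where 62.4% of all genes were called and 27.2% were higher. Without MT replicate 3, mt-Cytb was at 0.34 and did not pass (edgeR, adjusted p = 0.076). mt-Nd5 was 0.18 ± 0.10, mt-Nd1 0.07 ± 0.10 and mt-Nd2 -0.01 ± 0.09. mt-Nd5 passed as well with TMM, at 0.33, and with DESeq2, at 0.34. DESeq2 called 4 of the 5, where it called 44.8% of all genes, 23.9% higher. The mt-Co2 copy was higher in MT by 0.47 ± 0.09 (adjusted p = 0.00034). Fewer cells of a state and less RNA per cell cannot be told apart in these bulk libraries.

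**Figure D5:**
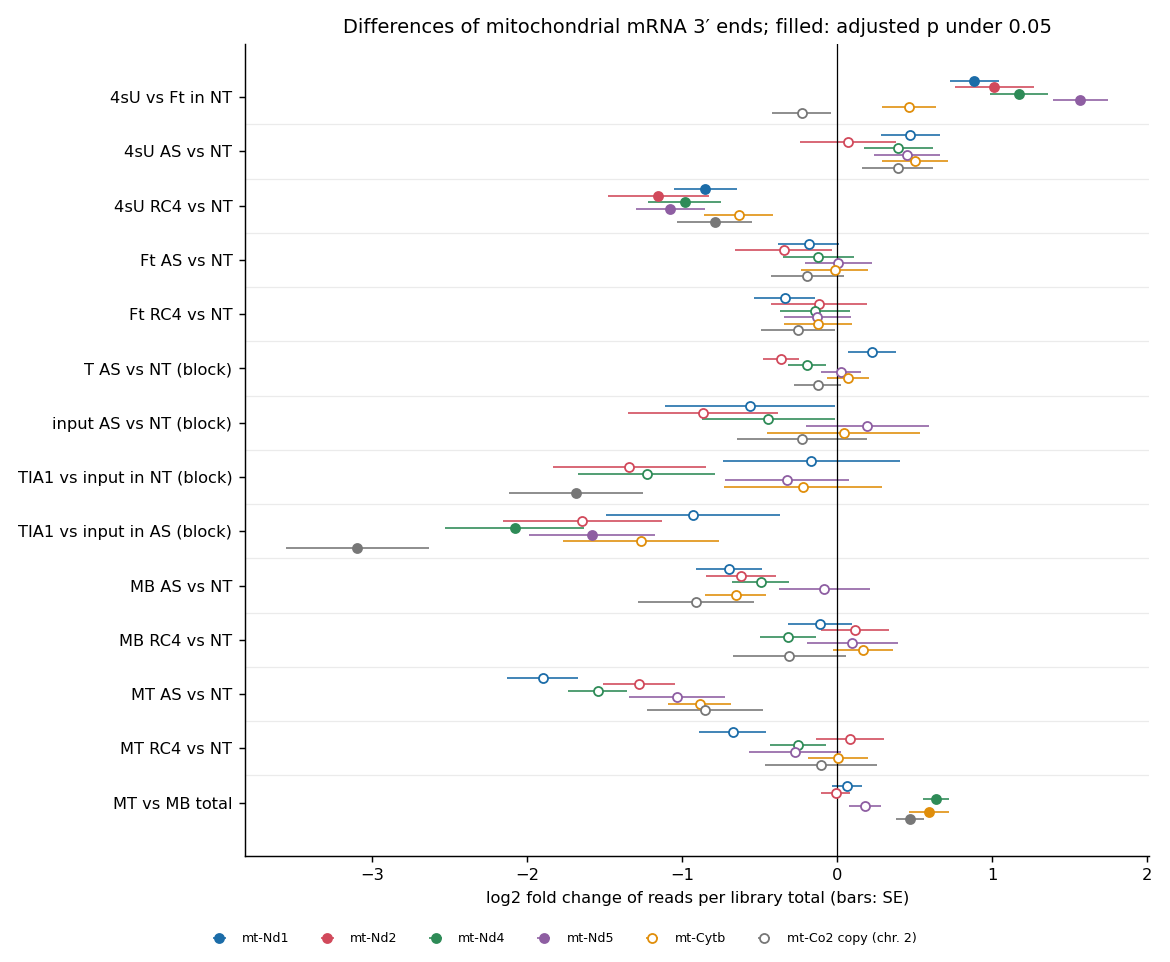
Log2 fold changes of the 5 mRNAs and of the mt-Co2 copy in 14 comparisons (points, edgeR estimates; bars, SE; filled, adjusted p under 0.05; "block", replicate number as a term of the model). For the 5 mRNAs, the 4sU to Ft comparison has 4 filled points above 0, and 4sU at RC4 has 4 filled points below 0. The point of the copy is also filled and below 0 in 4sU at RC4.

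Nuclear genes for mitochondrial DNA replication, transcription and RNA processing, and their regulators (45 symbols listed, 28 to 31 tested), were set beside the mRNAs. In total RNA after AS, 0 of 30 passed without or with the block. The largest changes by value were Ppargc1a (-0.78 ± 2.72), a coactivator of mitochondrial biogenesis genes, Pde12 (-0.67 ± 1.26), a mitochondrial deadenylase, and Polg (-0.62 ± 0.45), the mitochondrial DNA polymerase, each with an adjusted p of 1.0 in edgeR. Ppargc1a and Pde12 had few reads. Ppargc1a stood at 5.66 RPM in NT and 3.12 RPM in AS of replicate 1 and was not listed in the other T libraries. Pde12 stood at 7.43, 1.91 and 4.02 RPM in NT and 5.75, 2.15 and 0 RPM in AS (replicates 1, 2 and 4). In newly made RNA at RC4, 1 of 31 was higher and 3 lower (median -0.10), that is 12.9% against 26.7% of all genes. In AS cytoplasm, 0 of 29 passed in MB and in MT, with a median of 0.17 in each. In MT against MB total RNA, 3 of 31 were higher and 10 lower (median -0.25), against 18 higher and 7 lower of 66 on the respiratory chain list (median 0.09). These are 41.9% and 37.9% of the lists, where 62.4% of all genes were called.

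Across all 38 libraries, the nuclear genes whose RPM ranked most like the sum of the 5 mRNAs were Trappc6b (Spearman's rho 0.69), Sept7 (0.645), Sh3bgrl (0.642), Arl15 (0.636) and Eif1 (0.63). Those ranked most opposite were Gsn (-0.791), Ltbp3 (-0.723), Top1mt (-0.71), Snd1 (-0.696) and Pold1 (-0.69). The median over 5418 genes was -0.034. Libraries of 1 group share cell type and RNA fraction, so these values describe the collection and carry no test.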

How the data were processed

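The deposited 3′READS files hold raw read counts per PAS. To make them the authors removed adapters (Cutadapt), aligned to mm9 in bowtie2's local mode, discarded alignments of mapping quality under 10, and required 2 or more Ts that are not in the genome. Tool versions are not given in the sources used here. The lowest count listed is 5. The 4 RNA-seq files list no mitochondrial gene and were not used here. Positions were joined within 24 nt into 83590 nuclear clusters and given to genes of the NCBIM37 annotation, up to 4000 nt past a gene's end (93.3% of nuclear reads). Nuclear copies of mitochondrial DNA were sought with blastn (at least 90% identity over at least 60 nt).

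Counts were tested with edgeR 4.0.16 (quasi-likelihood test, R 4.3.3), with the total of all PAS reads as library size, so that a fold is one of the share of the library, a filter on low counts (filterByExpr) and Benjamini-Hochberg adjustment over all genes at 0.05. Sets were fitted separately: T, RIP, 4sU and Ft, C2C12 cytoplasm, C2C12 total RNA. DESeq2 1.42.0 and the other alternatives are given in the closing section. The code was tested on simulated counts. Shares have Wilson 95% intervals.

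T libraries with the same number deviated together (correlations 0.778 to 0.862), so the number pairs them. Within a condition, TIA1 and input of a number come from the same lysate. The block for this set joins NT and AS of a number. Blocked values are printed where they change a call. Genes outside the 9 were named by rule: of the mitochondrial expression list those called in T AS against NT or the 3 with the largest change, the 5 with the highest and the 5 with the lowest rank correlation, and the stress and nuclear RNA check genes. The members and lists were chosen with earlier results of these data known.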

Additional observations from a re-analysis of the deposited data

Results flagged for a closer look

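Reads outside the ends of the 9 mRNAs were numerous at 3 positions, which were chosen after their values had been seen. At the chromosome 2 copy of the end of mt-Co2, 441239 reads were listed over the 38 libraries, more than at the ends of mt-Nd2, mt-Nd5 or mt-Cytb. Their values stand beside those of the mRNAs in the report.

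On the mitochondrial minus strand, 335114 reads were listed at chrM:16121, outside any annotated gene, with mt-Tp as the next gene of that strand. This site was lower after AS in several sets. In MB cytoplasm it went from 8204 and 6713 RPM in NT to 688.6 RPM in AS (log2 fold change -3.44 ± 0.24, edgeR, adjusted p = 0.017) and in MT cytoplasm from 5405 and 5220 RPM to 860.7 RPM (-2.63 ± 0.23, adjusted p = 0.043). In 4sU the change was -1.13 ± 0.22 (adjusted p = 0.022) and in Ft -1.34 ± 0.22 (adjusted p = 0.025). With the replicate block it was -1.19 ± 0.14 in T (adjusted p = 0.017) and -2.65 ± 0.37 in input (adjusted p = 0.026). None of the 5 mRNAs passed in these AS comparisons in edgeR, while DESeq2 called 1 in 4sU, 1 in MB and 5 in MT. The difference between the site and the mRNAs was not tested.

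On the plus strand, 202717 reads were listed at chrM:3845, within mt-Tm. In MT total RNA this site was higher than in MB (0.55 ± 0.09, edgeR, adjusted p = 5.3e-05). In cytoplasm it went from 5087 and 5667 RPM in NT to 2377 RPM in AS in MT, and from 2314 and 2425 RPM to 830.8 RPM in MB.

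No group had 4 or more libraries, so no library was tested as an outlier within its group.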

How the results depend on the processing

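Over 134 results, 1708 values were computed under alternatives, of which 1522 were labelled unchanged. For a fold change this means the same direction and side of the threshold. For a count of called mRNAs it means the same or a close count, so a lost call can be among them. For a share it means a shift within counting error. The 99 that changed sign belonged to values that were not called, and 16 values of called results no longer passed. A further 51 values passed only under an alternative, and 20 counts or shares moved. Counts of called mRNAs moved as follows. DESeq2 gave 3 in 4sU against Ft in NT, 3 in TIA1 against input in AS, 1 in 4sU AS, 1 in 4sU RC4, 1 in MB AS, 5 in MT AS, 2 for the MT minus MB response to AS and 4 for MT against MB. TMM and median-ratio factors in edgeR gave 1 in 4sU RC4 and 3 in MT against MB. No filter on low counts gave 1 in TIA1 against input in NT and 3 in AS. The replicate block gave 2 in TIA1 against input in AS and 5 in 4sU against Ft. Library totals without mitochondrial reads gave 5 in 4sU against Ft and 5 in 4sU RC4. Giving every mitochondrial PAS to its nearest mRNA end gave 5 in 4sU RC4 and 4 in MT against MB, and the annotated gene end gave 3 in each of these. Adding reads at nuclear copies put the RC24 sum at 93.2% of NT. The cause was not tested for any of these.

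Without 1 library, the RIP, 4sU, Ft and C2C12 groups of 2 were left with 1. Counts of called mRNAs are therefore not given for these fits, only fold changes. In MT against MB, mt-Cytb was at 0.34 without MT replicate 3. Arms left with 1 library were assumed to vary like the others.

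Values of uncalled mRNAs that changed sign, on the log2 scale, were these. With PASs given to the nearest end, mt-Nd1 was -0.06 and mt-Nd5 -0.02 in T AS, mt-Nd1 -0.17 and mt-Cytb -0.08 in TIA1 against input in NT, mt-Nd1 0.16 in MB RC4, mt-Cytb -0.31 in MT RC4 and mt-Nd2 0.21 in MT against MB. With the replicate block, mt-Nd1 was -0.17 and mt-Cytb -0.22 in TIA1 against input in NT. With the annotated gene end, chosen after seeing the data, mt-Nd5 was 0.02 in TIA1 against input in NT, 0.09 in Ft RC4 and 0.14 in MT RC4. With library totals without mitochondrial reads, mt-Cytb was -0.01 in MT RC4 and mt-Nd2 0.01 in MT against MB.

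With TMM, median-ratio factors and DESeq2, in that order, Ft RC4 gave 0.07, 0.09 and 0.09 for mt-Nd1, 0.28, 0.30 and 0.30 for mt-Nd2, 0.26, 0.28 and 0.28 for mt-Nd4, 0.27, 0.29 and 0.29 for mt-Nd5, 0.28, 0.31 and 0.31 for mt-Cytb, and 0.15, 0.17 and 0.17 for the mt-Co2 copy. MB RC4 gave 0.21, 0.26 and 0.26 for mt-Nd1, 0.00, 0.05 and 0.05 for mt-Nd4, and 0.01, 0.06 and 0.06 for the copy. MT RC4 gave 0.05, 0.04 and 0.04 for the copy. The MT minus MB response at RC4 gave -0.11, -0.16 and -0.16 for mt-Nd4, and -0.02 for the copy with the last 2 of these. MT against MB gave 0.15 with each for mt-Nd2, and Ft AS gave 0.02 with TMM for mt-Cytb.

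Leaving out 1 library, T AS ran from -1.60 to 2.10 (mt-Nd1), -1.08 to 0.33 (mt-Nd2), -0.07 to 0.14 (mt-Nd5), -2.45 to 2.80 (mt-Cytb) and -0.27 to 0.21 (copy). Input AS ran from -2.18 to 0.29 (mt-Nd2), -0.67 to 1.00 (mt-Cytb) and -0.43 to 0.08 (copy). TIA1 against input ran from -1.20 to 1.03 (mt-Nd1), -0.78 to 0.25 (mt-Nd5) and -1.68 to 1.36 (mt-Cytb) in NT, and from -2.17 to 0.15 (mt-Nd1) and -3.04 to 0.18 (mt-Cytb) in AS. Its change ran from -2.48 to 0.61 (mt-Nd1), -1.64 to 0.83 (mt-Nd2) and -3.56 to 0.79 (mt-Cytb). 4sU against Ft ran from -0.55 to 0.04 (copy), 4sU AS from -0.32 to 0.61 (mt-Nd2), Ft AS from -0.02 to 0.03 (mt-Nd5) and -0.22 to 0.22 (mt-Cytb), and Ft RC4 from -0.24 to 0.01 (mt-Nd2) and -0.32 to 0.11 (mt-Cytb). MB AS ran from -0.38 to 0.29 (mt-Nd5), and MB RC4 from -0.29 to 0.09 (mt-Nd1), -0.20 to 0.47 (mt-Nd5) and -0.69 to 0.21 (copy). MT RC4 ran from -0.07 to 0.26 (mt-Nd2) and -0.00 to 0.01 (mt-Cytb). The MT minus MB response ran from -0.19 to 0.15 (mt-Nd2), -0.05 to 0.19 (mt-Nd4) and -0.31 to 0.58 (copy) at RC4, and from -0.46 to 0.44 (copy) for AS. MT against MB ran from -0.03 to 0.17 (mt-Nd1) and -0.12 to 0.11 (mt-Nd2).

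MB and MT total RNA libraries share only a number (correlation of deviations 0.058), and with the block 2 of the 5 mRNAs were called there, as without it. For cytoplasmic C2C12 RNA and for AS and RC4 within 4sU or Ft, where those arms have 1 library each, no blocked fit was made. Depth does not limit the 5 mRNAs, since each level lay far above 3 reads.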

Other observations

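Polyadenylated reads at the ends of the mitochondrial ribosomal RNAs were also listed, 69228 at the end of mt-Rnr1 and 62739 at the end of mt-Rnr2. mt-Rnr1 stood at 949.1 and 877.7 RPM in MT total RNA and 162.8 and 154.1 RPM in MB total RNA, a log2 fold change of 2.53 ± 0.10 (edgeR, adjusted p = 2.4e-11), while mt-Rnr2 stood at 427.1 and 477.5 RPM and 301.8 and 446.4 RPM (0.27 ± 0.14, adjusted p = 0.11). In cytoplasm at RC4 mt-Rnr1 stood at 5011 RPM in MT against 1717 and 2238 RPM in NT, and at 1521 RPM in MB against 516.4 and 722.5 RPM (adjusted p = 0.096 and 0.071). mt-Rnr2 went the other way in MT, at 2000 RPM at RC4 against 3199 and 4053 RPM in NT. In MB it stood at 3872 RPM against 3384 and 2249 RPM. After AS, mt-Rnr2 stood at 865.2 RPM in MB and 874.1 RPM in MT, and mt-Rnr1 at 214.8 and 1630 RPM. Both sites were looked at after the values of the mRNAs were known.

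mt-Nd6, the 1 mRNA of the minus strand, had 489 listed reads near its annotated end over the 38 libraries.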
